A study of Mus musculus with 12 samples.

Results

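The transcripts described here are 10 genes of the hypoxia-inducible factor (HIF) pathway: the factor subunits Hif1a, Epas1 and Arnt, the prolyl hydroxylases Egln1, Egln2 and Egln3, the ubiquitin ligase component Vhl, and the hypoxia targets Vegfa, Ndrg1 and Ankrd37. They were taken by symbol from a table of 53465 Ensembl genes, and all 10 were among the 19830 genes that passed a filter on low counts. The libraries come from mouse bone marrow hematopoietic stem cells sorted as lineage-negative, Kit- and Sca1-positive, CD150-positive and CD48-negative. Long-term HSCs (LT-HSCs) lacked CD34 and short-term HSCs (ST-HSCs) carried it. Both grew for 2 days in Stemline II medium with SCF and Flt3 ligand, either without addition (control) or with 1 mM nicotinamide riboside (NR), a precursor of nicotinamide adenine dinucleotide (NAD) that was renewed after 24 h. Each of the 4 groups, LT-HSCs and ST-HSCs in either medium, holds 3 samples. The labels give no strain, age, number of mice or oxygen level of the culture. Nor do they say whether the 3 samples are 3 separate animals or cultures, so a p-value here refers to the spread among samples that may be technical repeats.

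HIF is a pair of proteins, an oxygen-regulated alpha subunit (HIF-1 alpha from Hif1a or HIF-2 alpha from Epas1) and the constant partner ARNT. With oxygen present, the EGLN enzymes hydroxylate the alpha subunit, the VHL protein binds it, and it is degraded; without oxygen it accumulates and activates genes for glycolysis, blood vessel growth and pH control. The alpha subunits are controlled largely at the protein level, which RNA counts do not show. In bone marrow, HIF-1 alpha is known for its role in the glycolytic metabolism and quiescence of HSCs. Egln3, Vegfa, Ndrg1 and Ankrd37 are known HIF targets, so Egln3 is both a regulator and a target.

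Libraries held 24.6 M to 35.5 M counts in genes. Reads in no annotated gene made up 8.69% to 28.5% of reads. They were most frequent in sample 3 of the NR LT-HSCs (28.5%) and sample 3 of the NR ST-HSCs (26.2%), against at most 17.0% elsewhere. Levels below are CPM, the counts relative to library size after scaling with TMM factors. With NR 472 of all genes tested were higher and 1503 lower in LT-HSCs (712 and 1192 with relative log expression factors), and 1155 higher and 2193 lower in ST-HSCs (1662 and 1552). Cd34, the gene of the gate, lay between 229.9 and 270.0 CPM in LT-HSCs and between 605.6 and 739.7 CPM in ST-HSCs, and Kit between 1344 and 1716 CPM in all libraries. Cd48, which both gates excluded, reached at most 6.25 CPM. Sca1 is encoded by Ly6a, which was at 23.2 to 47.6 CPM in LT-HSCs and 5.51 to 10.5 CPM in ST-HSCs.

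To show what surrounds the start of 3 of the genes that changed with NR, the 250 bases before a RefSeq start site are given in the GRCm38.p6 assembly. They are in lower case, with each match to the core of the HIF binding motif in capitals (ACGTG or GCGTG, on either strand, where CACGT and CACGC are the reverse matches). Start sites were listed for 8 of the 10 genes, not for Ndrg1 or Epas1.
Hif1a, chr12:73907617-73907866, plus strand: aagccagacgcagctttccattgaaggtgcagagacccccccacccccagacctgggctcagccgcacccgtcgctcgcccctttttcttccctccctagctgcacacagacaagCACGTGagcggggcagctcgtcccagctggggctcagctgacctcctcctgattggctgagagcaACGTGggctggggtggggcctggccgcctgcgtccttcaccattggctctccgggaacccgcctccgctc
Egln3, chr12:54203875-54204124, minus strand: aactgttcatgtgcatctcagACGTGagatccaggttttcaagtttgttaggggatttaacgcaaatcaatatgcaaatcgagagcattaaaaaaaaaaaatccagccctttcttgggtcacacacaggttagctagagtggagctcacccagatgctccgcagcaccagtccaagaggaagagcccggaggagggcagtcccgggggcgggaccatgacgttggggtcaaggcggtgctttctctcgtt
Vegfa, chr17:46032378-46032627, minus strand: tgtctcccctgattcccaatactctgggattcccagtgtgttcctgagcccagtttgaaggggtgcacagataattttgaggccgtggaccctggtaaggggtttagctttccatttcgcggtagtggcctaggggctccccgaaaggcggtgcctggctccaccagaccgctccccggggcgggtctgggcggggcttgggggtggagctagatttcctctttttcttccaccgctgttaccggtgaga
The Hif1a window held 3 matches to ACGTG, of which 2 overlap on opposite strands in CACGTG (first bases 135 and 134 before the start) and the other begins 70 bases before it. The Egln3 window held 1 match, 229 bases before the start, and the Vegfa window held 0. The window of Vhl, which also changed with NR in ST-HSCs and is not printed, held 0 as well. A second listed Vegfa start (window chr17:46025164-46025413), not printed because 218 of its 250 bases lie in annotated exons, held 1 match to ACGTG and 1 to GCGTG. Of 32851 such windows of all genes, 16.6% held ACGTG, 28.2% GCGTG and 38.6% either. A match describes letters only, and a window with 0 matches says only that these letters are not in its 250 bases.

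Per length of exon, the 10 genes spanned a wide range of levels. Over the 12 libraries Ndrg1 stood at 29.3 ± 8.93 CPM per kb (mean ± SD, n = 12), Egln2 at 27.4 ± 2.08, Hif1a at 19.0 ± 2.52 and Vhl at 15.96 ± 1.89. Below them lay Arnt (9.07 ± 0.54), Egln3 (8.81 ± 1.21) and Vegfa (7.49 ± 2.99), then Egln1 (1.38 ± 0.29), Ankrd37 (0.80 ± 0.18) and Epas1 (0.143 ± 0.104). The ranges of Ndrg1 and Egln2 overlapped, as did those of Hif1a and Vhl, of Arnt, Egln3 and Vegfa, and of Egln1 and Ankrd37; the steps from Egln2 to Hif1a, Vhl to Arnt, Vegfa to Egln1 and Ankrd37 to Epas1 separated all libraries. Of the 2 alpha subunits these cells thus carried mostly Hif1a transcripts, with 2628 to 4488 counts per library against 3 to 48 for Epas1. By group, Ndrg1 averaged 24.3 CPM per kb in control LT-HSCs and 18.3 with NR, below Egln2 (29.0 and 27.5). In ST-HSCs it averaged 39.8 and 34.8, above Egln2 (27.1 and 26.1).

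**Figure D1:**
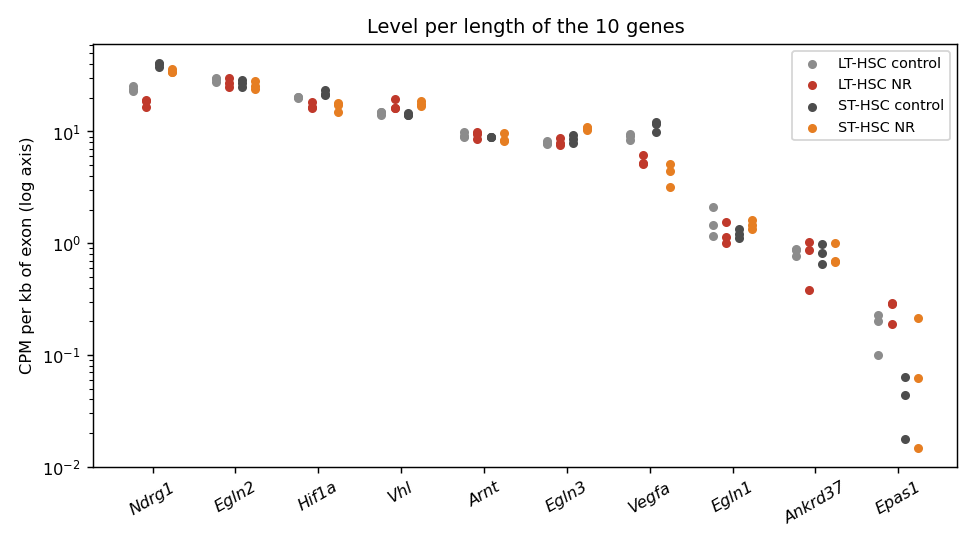
CPM per kb of exon on a log axis for each of the 10 genes, 1 point per library, 3 libraries per group, coloured by group. Averaged over the 12 libraries, Ndrg1 and Egln2 are the most abundant per length (29.3 and 27.4 CPM per kb), and Epas1 is the lowest (0.143).

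With NR, Vegfa had the largest fold change among those of the 10 genes that passed the test, in both cell types; in LT-HSCs the smaller change of Ndrg1 had the lower adjusted p. In LT-HSCs 2 of the 10 genes passed an adjusted p of 0.05, Vegfa and Ndrg1, both lower (against 9.96% of all genes tested, 2.38% higher and 7.58% lower). In ST-HSCs 4 passed: Vegfa and Hif1a were lower and Egln3 and Vhl higher (against 16.9% of all genes, 5.82% higher and 11.1% lower). These shares are over all 19830 genes tested, of any level. With only genes of a mean of at least 5 CPM fitted, fewer genes were tested. More of them passed, 2862 in LT-HSCs and 4028 in ST-HSCs, so the share is higher among such genes. The 10 genes had a median log2 change of -0.11 in LT-HSCs and -0.03 in ST-HSCs, beside 0.04 and -0.03 over all genes tested. Arnt, Egln1, Egln2, Epas1 and Ankrd37 passed in neither cell type. The counts were again 2 and 4 when the 2 libraries with most unassigned reads were left out. Without 1 library they stayed at 2 in LT-HSCs, and fell to 2 in ST-HSCs without control sample 2 or NR sample 1. In bulk RNA, fewer cells of one kind and less RNA per cell cannot be told apart.

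**Figure D2:**
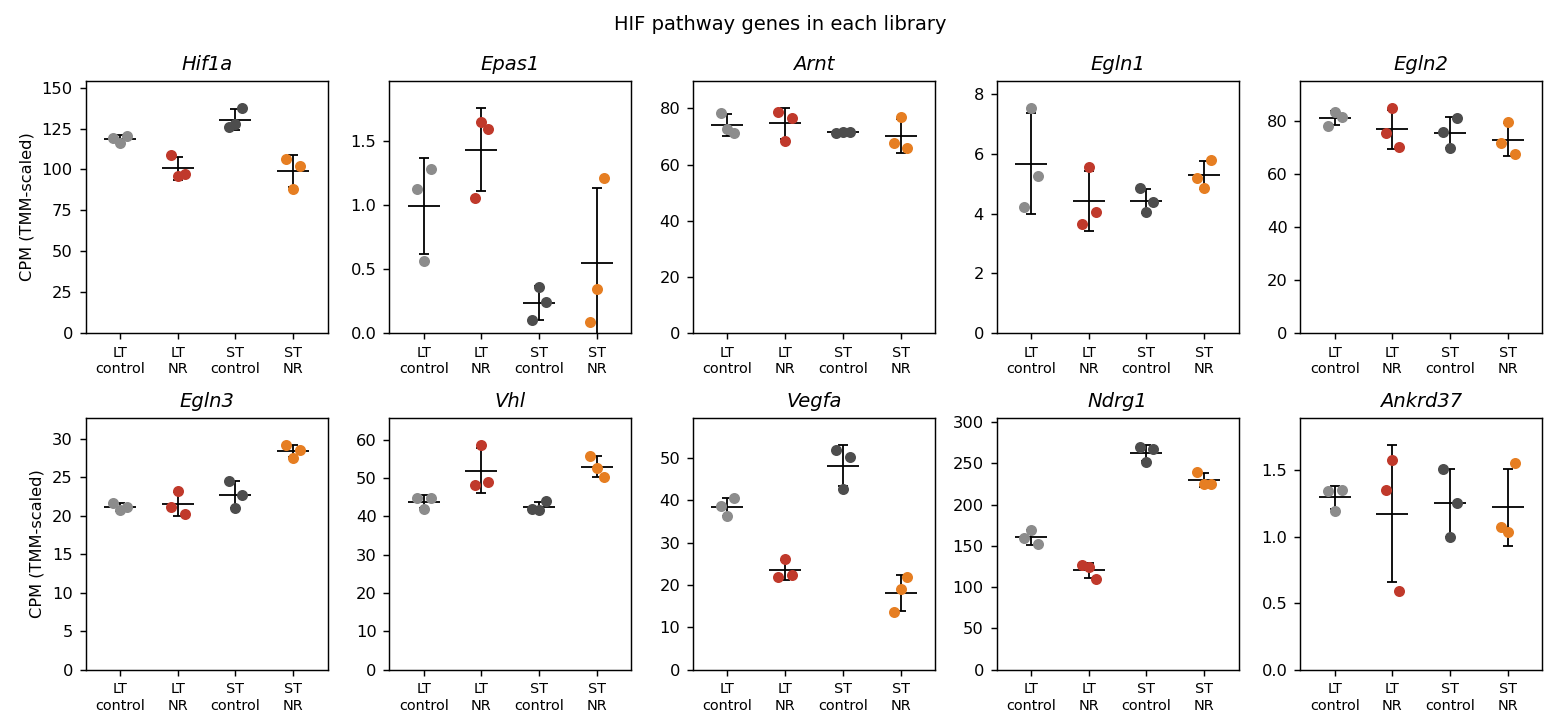
TMM-scaled CPM of each gene in every library, 1 panel per gene with its own linear axis from 0, points for the 3 samples of each group, bars for the mean and SD (a lower bar that passes 0 is cut there). Vegfa is below all control libraries in the 6 NR libraries (13.5 to 26.2 CPM against 36.2 to 51.8), while Arnt and Egln2 overlap in all 4 groups.

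Among the targets, Vegfa (ENSMUSG00000023951) encodes the main growth factor for blood vessels and is made by HSCs themselves. It was at 38.7, 36.2 and 40.4 CPM in control LT-HSCs and at 22.0, 26.2 and 22.3 CPM with NR. In ST-HSCs it was at 51.8, 42.6 and 50.2 CPM in control and at 13.5, 19.0 and 22.0 CPM with NR. All NR samples of a cell type lay below all its controls, and the NR level was 0.611 times the control level in LT-HSCs and 0.377 times in ST-HSCs. The log2 change was -0.71 ± 0.15 in LT-HSCs (SE; edgeR adjusted p = 0.00883) and -1.41 ± 0.15 in ST-HSCs (edgeR adjusted p = 5.72e-05). Over all alternatives the change ran from -0.76 to -0.64 and from -1.50 to -1.23, and it passed in each of them.

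The change in ST-HSCs minus that in LT-HSCs was -0.70 ± 0.21 on the log2 scale (95% interval -1.15 to -0.25). Adjusted over all genes this difference did not pass (edgeR adjusted p = 0.545; DESeq2 adjusted p = 0.113). In control culture the 3 LT-HSC samples lay below the 3 ST-HSC samples, and with NR they lay just above them (21.99 against 21.97 CPM at the nearest samples). Neither difference between cell types passed: LT minus ST was -0.33 ± 0.15 in control culture (edgeR adjusted p = 0.314) and 0.38 ± 0.15 with NR (edgeR adjusted p = 0.206; 0.0482 without NR ST-HSC sample 3).

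Ndrg1 (ENSMUSG00000005125), a hypoxia- and stress-induced gene linked to growth arrest and differentiation, was at 159.3, 169.5 and 152.1 CPM in control LT-HSCs and at 126.6, 124.5 and 110.2 CPM with NR. In ST-HSCs it was at 269.2, 251.2 and 267.1 CPM in control and 238.9, 225.2 and 224.3 CPM with NR. The groups did not overlap in either cell type. It fell by 0.41 ± 0.07 on the log2 scale in LT-HSCs (edgeR adjusted p = 0.00231), and in ST-HSCs its change of -0.19 ± 0.07 did not pass (edgeR adjusted p = 0.0656). It passed when only the ST-HSC groups were fitted (edgeR adjusted p = 0.0398), with the sample number as a block (0.0401) and with the unassigned share as a covariate (0.0163). The difference of the effects was 0.22 ± 0.09 (ST minus LT; edgeR adjusted p = 0.788). In the annotation used here 8.43% of its exon bases lie under antisense gene models. The strand setting of the counting is not given, so whether reads there were counted or set aside as ambiguous is not known.

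Ndrg1 was the one gene of the 10 that passed between the cell types in both cultures. LT-HSCs held 0.611 times the ST-HSC level in control culture and 0.525 times with NR. The log2 difference, LT minus ST, was -0.71 ± 0.07 in control culture (edgeR adjusted p = 3.14e-05) and -0.93 ± 0.07 with NR (edgeR adjusted p = 3.85e-06), and it passed in every alternative. Marker sums of other cells also stood apart between these groups. The T and NK list, carried by Nkg7, summed to 16.5 to 22.6 CPM in control LT-HSCs and 73.8 to 79.3 in control ST-HSCs, with Cd3e, Cd3g and Ncr1 near 0 (means of 0.153, 0.315 and 0.0383 CPM). The stromal list, carried by Pdgfrb, summed to 8.60 to 11.4 against 33.2 to 47.0 CPM. Mast and basophil markers summed to 5.99 to 23.6 against 24.0 to 30.6 CPM, and Mcpt8 and Ms4a2 of that list overlapped. With NR that list summed to 4.51 to 15.1 against 15.8 to 24.6 CPM. Monocyte, macrophage and dendritic sums overlapped in control culture and stood apart with NR (22.8 to 25.2 against 34.8 to 58.2 CPM). The part of these lists in the Ndrg1 difference was not tested.

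Ankrd37 (ENSMUSG00000050914), a small ankyrin-repeat gene that HIF-1 induces, stayed low. It lay between 1.20 and 1.35 CPM in control LT-HSCs, 0.592 and 1.58 with NR, 1.00 and 1.51 in control ST-HSCs, and 1.04 and 1.55 with NR. All groups overlapped, and with 16 to 46 counts per library the interval of its change with NR was -1.005 to 0.72 in LT-HSCs and -0.90 to 0.82 in ST-HSCs. A difference of less than about that size was not detectable at this depth. In the annotation used here 26.4% of its exon bases lie in exons of Lrp2bp or Ufsp2 on the opposite strand, which limits it further.

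Some marker sums of other lineages were also lower with NR, while the neutrophil, mast and basophil, and B cell sums overlapped in both cell types. The 5 megakaryocyte markers summed to 2435 to 2771 CPM in control LT-HSCs and 1580 to 2193 with NR, and to 2681 to 2953 and 1636 to 2138 in ST-HSCs. All 5 were above 1 CPM and none was at 0. Pf4 and Itga2b carried the sum (means of 1121 and 964 CPM). These and Gp9 were lower with NR without overlap in both cell types, while Gp1bb and Ppbp overlapped. Ppbp was at 62.7 to 73.9 CPM in control LT-HSCs and 62.1 to 93.6 with NR. In ST-HSCs it was at 49.1 to 67.3 CPM in control and 59.4 to 73.1 with NR. The 7 erythroid markers summed to 42.1 to 52.1 and 28.8 to 33.8 CPM in LT-HSCs, and to 42.1 to 51.1 and 21.5 to 30.1 in ST-HSCs. Epor made up most of this sum, while Hba-a1 was near 0 (mean of 0.0214 CPM). The T and NK list, carried by Nkg7, summed to 7.44 to 8.21 CPM in LT-HSCs with NR against 16.5 to 22.6 in control, and to 31.4 to 35.7 against 73.8 to 79.3 in ST-HSCs. The stromal list, carried by Pdgfrb, summed to 17.7 to 32.7 CPM in ST-HSCs with NR against 33.2 to 47.0 in control, and its groups overlapped in LT-HSCs (5.38 to 13.8 against 8.60 to 11.4). The part of any of these lists in the values of Vegfa and Ndrg1 was not tested. Vegfa in the 2 libraries richest in unassigned reads was at 22.3 CPM, between the other NR LT-HSC samples, and at 22.0 CPM, the highest of the NR ST-HSC samples.

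Among the factor subunits, Hif1a (ENSMUSG00000021109) was lower with NR. It was at 119.3, 116.3 and 120.7 CPM in control LT-HSCs and at 108.9, 96.0 and 97.2 CPM with NR. In ST-HSCs it was at 125.9, 127.9 and 137.5 CPM in control and at 106.5, 87.9 and 102.3 CPM with NR. The groups did not overlap in either cell type. The change was -0.40 ± 0.08 in ST-HSCs (edgeR adjusted p = 0.0037; 0.0538 without NR sample 3). In LT-HSCs it was -0.24 ± 0.08, which did not pass (edgeR adjusted p = 0.0816), but passed with the sample number as a block (edgeR adjusted p = 0.0393). The difference of the effects was -0.16 ± 0.11 (ST minus LT; edgeR adjusted p = 1.000). Of its exon bases 8.11% are shared with other gene models in the annotation used here.

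Arnt (ENSMUSG00000015522) was among the steadiest of the 10 genes, between 65.8 and 78.8 CPM in all libraries. Its log2 change with NR was 0.01 ± 0.08 in LT-HSCs and -0.03 ± 0.08 in ST-HSCs, with 95% intervals of -0.16 to 0.18 and -0.20 to 0.14. The sign of so small a value depended on the scaling. LT-HSCs and ST-HSCs differed in it by 0.05 ± 0.08 in control culture and 0.09 ± 0.08 with NR (LT minus ST; edgeR adjusted p = 0.868 and 0.75).

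Epas1 (ENSMUSG00000024140), which encodes HIF-2 alpha, was at 1.13, 0.565 and 1.28 CPM in control LT-HSCs and 1.06, 1.65 and 1.59 CPM with NR. In ST-HSCs it was at 0.0984, 0.358 and 0.245 CPM in control and 0.0828, 0.345 and 1.21 CPM with NR. Control LT-HSCs lay above control ST-HSCs without overlap, at 17 to 37 counts against 3 to 10, while the NR groups overlapped through NR ST-HSC sample 3. The log2 difference in control culture was 2.07 ± 0.81 (LT minus ST), which did not pass (edgeR adjusted p = 0.217), but passed with the unassigned share as a covariate (2.50, edgeR adjusted p = 0.0208).

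The NR change of Epas1 in ST-HSCs, 1.20 ± 0.80 (edgeR adjusted p = 0.408), rested on NR sample 3, which had 26.2% unassigned reads against 9.17% and 13.0% in the other 2. Without that library it was -0.07. Epas1 is known from blood vessel lining cells. The endothelial markers summed to 169.2 to 185.9 CPM in control LT-HSCs and 172.6 to 185.5 in control ST-HSCs. With NR these sums were 165.5 to 202.0 CPM in LT-HSCs and 187.4 to 194.1 in ST-HSCs, the latter above all control ST-HSC samples. Almost all came from Pecam1, Tek, Emcn and Kdr, which HSCs and their progeny also express, and Cdh5 was near 0 (mean 0.247 CPM). In ST-HSCs Pecam1 was higher with NR without overlap (90.9 to 95.2 CPM against 80.5 to 88.4 in control). Kdr was lower without overlap (2.46 to 3.73 against 3.95 to 6.79), and Tek, Emcn and Cdh5 overlapped. The part of these markers in the Epas1 values was not tested.

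Of the prolyl hydroxylases, Egln3 (ENSMUSG00000035105), the isoform most strongly induced by HIF, rose with NR in ST-HSCs. It was at 24.6, 21.0 and 22.6 CPM in control and 29.1, 27.5 and 28.6 CPM with NR, without overlap. In LT-HSCs it was at 21.7, 20.7 and 21.1 CPM in control and 21.2, 23.2 and 20.2 CPM with NR, which overlapped. The change was 0.32 ± 0.09 in ST-HSCs (edgeR adjusted p = 0.0209) and 0.02 ± 0.09 in LT-HSCs (edgeR adjusted p = 0.907). The difference of these effects was 0.30 ± 0.12 (95% interval 0.03 to 0.56; edgeR adjusted p = 0.752), so the effects are not shown to differ. The ST-HSC call was lost without control sample 2 (edgeR adjusted p = 0.0925) or 3 (0.0676) or NR sample 1 (0.0702).

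With NR, Egln3 was also lower in LT-HSCs than in ST-HSCs, by a log2 difference of -0.40 ± 0.09 (edgeR adjusted p = 0.0132). That call was lost without NR LT-HSC sample 1 (edgeR adjusted p = 0.0576) or 3 (0.0591), without NR ST-HSC sample 1 (0.0525), and when both libraries with most unassigned reads were left out (0.121). In control culture the difference was -0.10 ± 0.09 (edgeR adjusted p = 0.716). Monocyte, macrophage and dendritic marker sums were higher with NR. The 7 summed to 13.2 to 16.1 CPM in control ST-HSCs and 34.8 to 58.2 with NR, and to 12.9 to 16.1 and 22.8 to 25.2 in LT-HSCs. Of these 3 exceeded a mean of 1 CPM (Cd68, Tyrobp and Csf1r). Itgax, Adgre1, Ly86 and Cx3cr1 stayed below it (means of 0.628, 0.433, 0.296 and 0.279 CPM). Cd68 was higher with NR without overlap in both cell types, and Tyrobp in ST-HSCs only. Csf1r and Itgax overlapped between control and NR in both cell types. The part of these 7 markers in the Egln3 rise was not tested.

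Egln2 (ENSMUSG00000058709) was the main prolyl hydroxylase transcript, and Egln1 (ENSMUSG00000031987), known as the chief oxygen sensor among the enzymes, was the least abundant per length. Of the summed per-length level of the 3 genes, Egln2 made up 75.3 ± 0.32% in control LT-HSCs, 74.7 ± 0.46% with NR, 73.5 ± 1.47% in control ST-HSCs and 68.2 ± 2.47% with NR (mean ± SD, n = 3). Egln3 made up 20.7 ± 1.13%, 22.0 ± 0.52%, 23.2 ± 1.25% and 28.0 ± 1.98%, and Egln1 3.32% to 4.08% on average. The lower Egln2 share in NR ST-HSCs, at most 70.9% against at least 72.0% in control, went with the rise of Egln3; the shares were not tested.

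Egln2 lay between 67.6 and 85.1 CPM in all libraries and overlapped in all groups. Its change was -0.07 ± 0.09 in LT-HSCs and -0.05 ± 0.09 in ST-HSCs (edgeR adjusted p = 0.707 and 0.868), with intervals of -0.27 to 0.12 and -0.24 to 0.14. The sign in ST-HSCs turned with other scalings. Egln1 was at 4.21, 7.54 and 5.27 CPM in control LT-HSCs and 3.65, 5.56 and 4.07 with NR, and at 4.85, 4.04 and 4.38 in control ST-HSCs and 5.19, 4.87 and 5.80 with NR. Its change was -0.36 ± 0.22 in LT-HSCs and 0.26 ± 0.22 in ST-HSCs (edgeR adjusted p = 0.411 and 0.584). These opposite signs differed by 0.61 ± 0.31 (edgeR adjusted p = 0.901).

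Vhl (ENSMUSG00000033933), which encodes the protein that binds hydroxylated HIF alpha, was higher with NR. It was at 42.05, 41.7 and 43.9 CPM in control ST-HSCs and 55.8, 52.7 and 50.4 CPM with NR, a log2 rise of 0.32 ± 0.09 (edgeR adjusted p = 0.0213). In LT-HSCs it was at 44.9, 41.9 and 44.8 CPM in control and 48.2, 58.7 and 48.9 CPM with NR. There the change of 0.24 ± 0.09 did not pass (edgeR adjusted p = 0.0979), but it passed with a stricter filter on low counts (0.00706), with upper-quartile (0.021) or relative log expression factors (0.0314) and in DESeq2 (adjusted p = 0.00392). The groups did not overlap in either cell type. The ST-HSC call was lost without control sample 1 (edgeR adjusted p = 0.0719) or 2 (0.0737) or NR sample 1 (0.085).

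**Figure D3:**
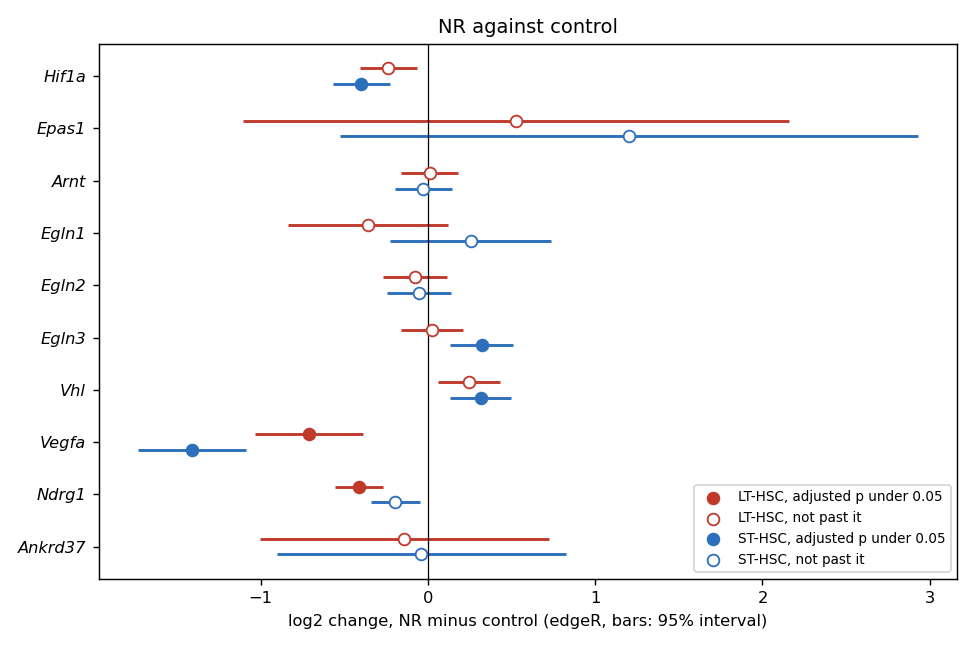
Log2 change with NR (NR minus control) of the 10 genes in LT-HSCs (red) and ST-HSCs (blue), points for the edgeR estimate and bars for its 95% interval, filled where the adjusted p is under 0.05. Vegfa is lowest in both (-0.71 and -1.41), and the intervals of Epas1 and Ankrd37 are the widest.

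No gene of the 10 had an NR effect that differed between the cell types at an adjusted p of 0.05 (edgeR, 0 of 10; 2 of all 19830 genes, 0.0101%). At an unadjusted p under 0.05 there were 3 in edgeR (Vegfa, Egln3 and Ndrg1) and 3 in DESeq2, which called 0 after adjustment. DESeq2 gave no adjusted p for the Epas1 difference. Between LT-HSCs and ST-HSCs 1 gene passed in control culture (Ndrg1, lower in LT-HSCs; against 5.01% of all genes, 3.51% higher and 1.50% lower) and 2 with NR (Ndrg1 and Egln3, both lower; against 6.07%, 3.80% higher and 2.27% lower). With NR the number was 1 once the 2 libraries with most unassigned reads were left out. The median difference of the 10 genes was 0.04 in control culture and -0.00088 with NR, beside -0.05 and 0.02 over all genes.

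**Figure D4:**
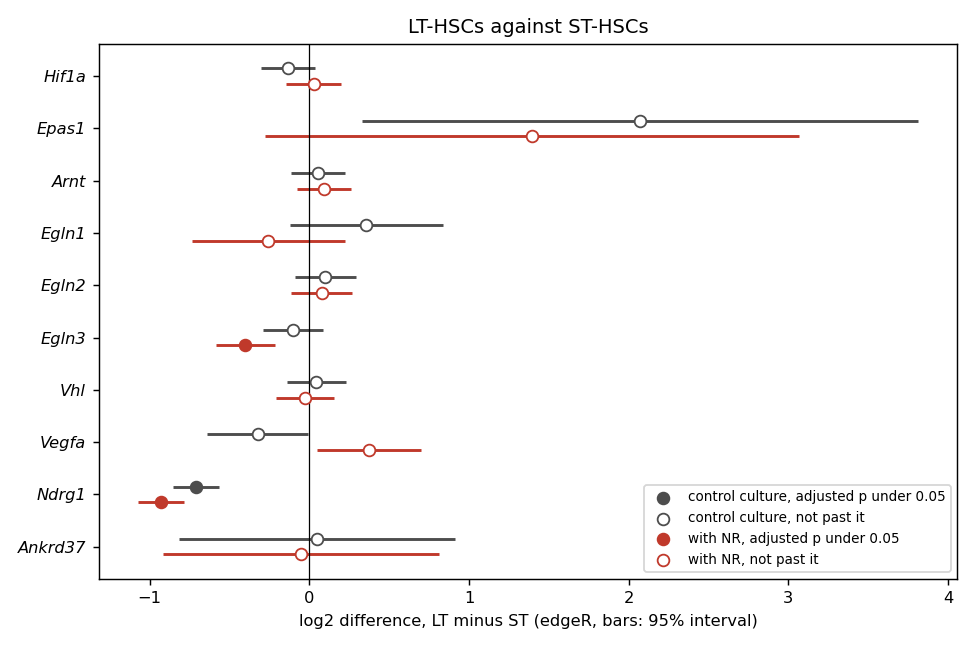
Log2 difference between cell types (LT minus ST) of the 10 genes in control culture (grey) and with NR (red), points for the edgeR estimate and bars for its 95% interval, filled where the adjusted p is under 0.05. Ndrg1 is lower in LT-HSCs in both cultures (-0.71 and -0.93); the interval of Epas1 in control culture runs from 0.33 to 3.81.

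Other regulators of HIF were a list of 16 genes that all passed the filter. With NR 4 of 16 passed in LT-HSCs, 1 higher and 3 lower (against 9.96% of all genes). In ST-HSCs 2 of 16 passed, both lower (against 16.9% of all genes, so not above that share). Among genes of at least 5 CPM the share that passed was higher, and no list was tested against it. Hsp90aa1, whose chaperone protein stabilises HIF-1 alpha, fell by 0.45 ± 0.06 in LT-HSCs and 0.36 ± 0.06 in ST-HSCs, and its relative Hsp90ab1 fell by 0.22 ± 0.06 in both. Rbx1, a subunit of the VHL ubiquitin ligase, fell by 0.29 ± 0.08 in LT-HSCs. Hif3a, which encodes an alpha subunit with inhibitory forms, rose in LT-HSCs by 1.03 ± 0.24, from 6.31, 6.64 and 10.01 CPM to 17.0, 13.0 and 17.0 CPM. These edgeR adjusted p-values ran from 0.00103 to 0.0379. In ST-HSCs the changes of Hif3a (0.55 ± 0.24, edgeR adjusted p = 0.157) and Rbx1 (-0.18 ± 0.08, edgeR adjusted p = 0.170) did not pass.

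These counts depended on single libraries. In LT-HSCs 1 gene passed without control sample 1 or 2, and 2 without control sample 3, NR sample 1 or NR sample 3. In ST-HSCs 1 passed without any one control sample, 0 without NR sample 3, and 3 when NR sample 1 or 2 was left out. With both libraries of most unassigned reads left out, 2 and 1 passed. With the sample number as a block 6 and 5 passed, and DESeq2 called 7 and 2. The median change of the list was 0.10 in LT-HSCs and -0.13 in ST-HSCs.

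Other hypoxia targets outside glycolysis moved in both directions. Of 34 genes listed, 29 passed the filter. With NR 3 were higher and 4 lower in LT-HSCs (7 of 29, against 9.96% of all genes), and 5 higher and 5 lower in ST-HSCs (10 of 29, against 16.9%). The heme oxygenase gene Hmox1, which NRF2 also controls, rose from between 2.36 and 2.65 CPM to between 8.73 and 15.7 CPM in LT-HSCs. In ST-HSCs it rose by 2.61 ± 0.39 (edgeR adjusted p = 0.000559), from between 0.582 and 2.90 to between 10.5 and 11.3 CPM. Mif, a cytokine gene, fell from between 276.4 and 297.9 to between 152.1 and 179.4 CPM in LT-HSCs and from between 288.9 and 294.2 to between 150.7 and 188.7 CPM in ST-HSCs.

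The lipoprotein receptor gene Vldlr fell by 1.19 ± 0.18 and 1.24 ± 0.18, and the adenylate kinase gene Ak4 by 0.77 ± 0.11 and 0.55 ± 0.11. Ddit4, which encodes the mTOR inhibitor REDD1 and is also a p53 and stress target, rose in ST-HSCs from 8.79, 8.26 and 8.73 CPM to 20.8, 18.8 and 19.8 CPM. In LT-HSCs the Ddit4 change of 0.42 ± 0.13 did not pass (edgeR adjusted p = 0.0585). Bnip3, the mitophagy receptor gene, rose in ST-HSCs by 0.45 ± 0.14 (edgeR adjusted p = 0.046; named after its value was seen). The median change of the list was -0.04 in LT-HSCs and 0.04 in ST-HSCs, beside 0.04 and -0.03 over all genes.

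Glycolytic HIF targets likewise split. Of 20 genes, 2 were higher and 7 lower in LT-HSCs with NR (against 2.38% and 7.58% of all genes), and 5 higher and 6 lower in ST-HSCs (against 5.82% and 11.1%). The list's medians were -0.21 and -0.17. The number in LT-HSCs was 4 without control sample 2, NR sample 1 or NR sample 2, and 6 when both libraries with most unassigned reads were left out. Ldha fell by 0.59 ± 0.07 and 0.63 ± 0.07, and Pdk1, the kinase gene that limits pyruvate entry into mitochondria, by 0.51 ± 0.08 and 0.63 ± 0.08. Slc16a3, a lactate exporter gene, fell by 0.62 ± 0.13 in LT-HSCs. Hk2, which encodes a hexokinase, fell by 0.72 ± 0.14 in ST-HSCs. The glucose transporter gene Slc2a3 rose by 0.32 ± 0.05 in LT-HSCs. The aldolase gene Aldoc rose in ST-HSCs by 1.75 ± 0.21, from between 6.33 and 8.30 CPM to 35.7, 19.9 and 18.7 CPM. It also rose in LT-HSCs, by 0.79 ± 0.21 (edgeR adjusted p = 0.0273). With NR in ST-HSCs Slc16a3 was also lower (8.99 to 11.7 against 13.8 to 15.3 CPM). Slc2a3 was also higher there (326.5 to 341.9 against 278.1 to 290.9 CPM).

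**Figure D5:**
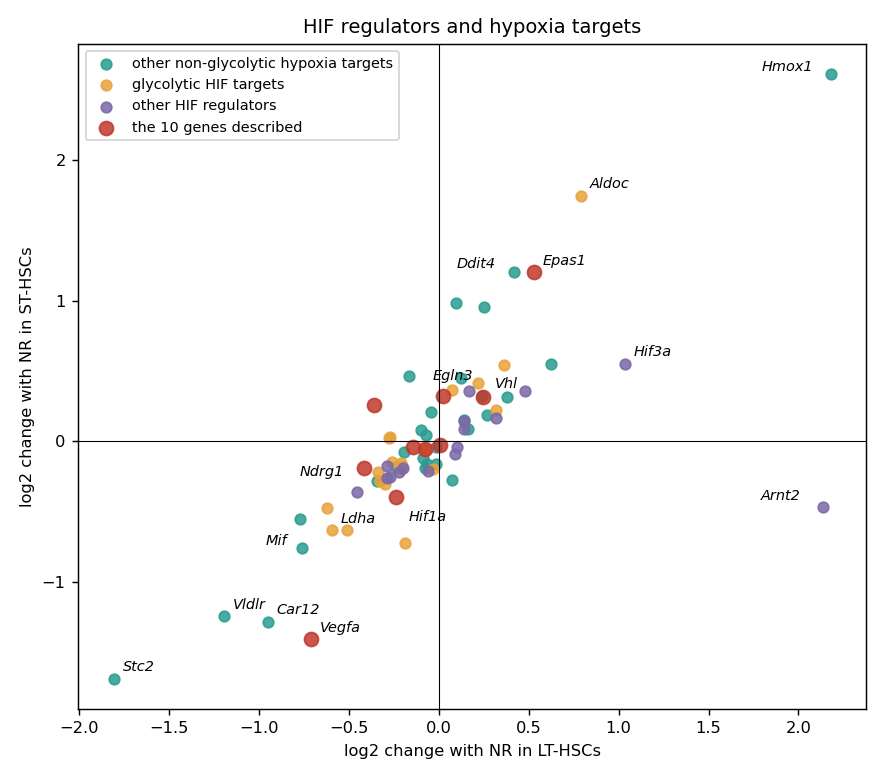
Log2 change with NR in LT-HSCs (horizontal) and in ST-HSCs (vertical) of the tested genes of the HIF lists, 1 point per gene, coloured by list. Vegfa lies at -0.71 and -1.41 and Hmox1 at 2.18 and 2.61; Stc2, Car12 and Arnt2 were labelled after their values were seen, and Arnt2 did not reach 1 CPM in any library.

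None of these lists had a gene whose NR effect differed between the cell types in edgeR after adjustment. At an unadjusted p under 0.05 there were 0 other regulators, 2 other targets outside glycolysis and 4 glycolytic targets, and DESeq2 called 0, 1 and 0. Between LT-HSCs and ST-HSCs edgeR called 0 of 16 other regulators in either culture (against 5.01% and 6.07% of all genes). There were 2 in each at an unadjusted edgeR p under 0.05, and DESeq2 called 0 and 2.

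Of the 29 tested targets outside glycolysis 1 was higher and 3 lower in LT-HSCs in control culture (against 3.51% and 1.50% of all genes). With NR 0 were higher and 2 lower (against 3.80% and 2.27%). Vldlr was lower in LT-HSCs by log2 differences of -0.96 ± 0.18 and -0.91 ± 0.18, and Ak4 by -0.57 ± 0.11 and -0.79 ± 0.11. Bhlhe40, which encodes a transcriptional repressor, was higher in control LT-HSCs by 0.81 ± 0.14. Of the 20 glycolytic targets 1 was higher and 0 lower in LT-HSCs in control culture (0 higher without control ST-HSC sample 2). With NR 2 were higher and 2 lower (2 in all without the 2 libraries of most unassigned reads). The shares over all genes are those just given. The phosphofructokinase gene Pfkp was higher by 0.33 ± 0.07 and 0.50 ± 0.07. These edgeR adjusted p-values ran from 0.000397 to 0.00912.

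Of the other VEGF family genes and the receptors, a list without Vegfa, 8 of 9 genes were tested (Vegfd was not). With NR edgeR called 0 in either cell type (against 9.96% and 16.9% of all genes). There were 0 and 1 genes at an unadjusted edgeR p under 0.05, and DESeq2 called 0 in both. In ST-HSCs edgeR called 1 without NR sample 3 and 2 without the 2 libraries of most unassigned reads. With NR, LT-HSCs held more Kdr, the VEGF receptor 2 gene, than ST-HSCs (log2 difference 1.45 ± 0.27, edgeR adjusted p = 0.00515), at 10.8, 6.42 and 6.40 against 2.46, 2.48 and 3.73 CPM. The ligand gene Vegfc was higher by 0.76 ± 0.20 (edgeR adjusted p = 0.0458). Without NR LT-HSC sample 1 or 2 or NR ST-HSC sample 1 or 2 only 1 gene of this family passed. In control culture edgeR called 0 and DESeq2 2 of them, with 2 at an unadjusted p under 0.05 in both tools.

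The relative Ndrg2 rose with NR in both cell types. It was at 22.5, 19.99 and 22.4 CPM in control LT-HSCs and 34.9, 37.7 and 35.5 with NR, and at 12.1, 14.2 and 15.1 CPM in control ST-HSCs and 36.3, 31.7 and 30.2 with NR. The rises were 0.73 ± 0.10 and 1.25 ± 0.11 (edgeR adjusted p = 0.000977 and 9.39e-06). In control culture LT-HSCs exceeded ST-HSCs by 0.65 ± 0.11 (edgeR adjusted p = 0.00214). With NR the cell types overlapped, and the difference of 0.14 ± 0.10 did not pass (edgeR adjusted p = 0.645). Ndrg4 was higher in LT-HSCs than in ST-HSCs with NR (2.36 ± 0.57, edgeR adjusted p = 0.0268), at 2.63 to 3.91 against 0.221 to 1.11 CPM, and lost that call without NR LT-HSC sample 2 or NR ST-HSC sample 1 or 2.

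The genes whose level followed each of the 7 more abundant genes most closely over the 12 libraries were found among 9981 genes of at least 5 CPM, as a description. Vegfa was most like Asns, the asparagine synthetase gene (Pearson r = 0.982), and Mmab (0.977). Asns went from 285.1 to 112.8 CPM with NR in LT-HSCs and from 309.5 to 74.8 in ST-HSCs. Ndrg1 was most like Adgrg3 (0.991) and Sh2d5 (0.991), which were also higher in ST-HSCs. Hif1a was most like Bclaf1 (0.961) and Heatr1 (0.956). Vhl was most like Pip4p1 (0.971) and Pcyt2 (0.958), and Egln3 most like Prr14 (0.949) and Tyrobp (0.947). Arnt (Cenpj, 0.833; Ppp6r2, 0.822) and Egln2 (Bub3, 0.914; Tmed3, 0.914) had weaker partners. The 12 points share groups and depth, so groups that differ produce such values without any other link.

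Among the 10 genes themselves, Vegfa and Hif1a varied together over the 12 libraries (Pearson r = 0.808, as a description), and Vhl ran opposite to Vegfa (-0.817) and to Hif1a (-0.799). Epas1 ran opposite to Ndrg1 (-0.822). The next in size was Arnt with Egln1 (-0.559).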

How the data were processed

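The deposited table holds read counts per Ensembl gene, 1 column per sample. Per the submitters' processing notes the authors used FastQC 0.11.2, STAR 2.5.0b and HTSeq 0.6.1; for build, annotation, strand setting and filters the entry is "not given in the sources used here". Per the labels' protocols, libraries came from SMART-seq v4 and Nextera XT kits. Of 53465 genes 53274 had a symbol in the GENCODE M21 names; 0 columns were not used. Reads in no feature (8.69% to 28.5%) and ambiguous reads (3.30% to 4.38%) stayed out of library sizes.

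All 12 samples were fitted with edgeR 4.0.16 (R 4.3.3; quasi-likelihood, TMM, filterByExpr with minimum count 10 and total 15; two-sided), 4 group means, Benjamini-Hochberg adjustment over 19830 genes; the SE is the log2 change over the root of F. The steps were tested on simulated data. Lengths are GENCODE M21 exon unions and promoters are RefSeq GRCm38.p6. Likeness used log2 CPM with a prior count of 2. Named genes are the 10 genes, up to 4 genes of smallest p per list and comparison, and the 2 most alike genes of each of the 10 with at least 5 CPM. The 10 genes and the lists were chosen with earlier results of these data known. No 2 replicates were duplicates (chi-square per degree of freedom 6.30 to 37.2).

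By the data and not the labels, same-numbered samples deviated together for control and NR LT-HSCs (r = 0.510, 0.250 and 0.713). They also did for NR LT-HSCs and NR ST-HSCs (0.738, 0.151 and 0.839) and control LT-HSCs and NR ST-HSCs (0.474, 0.072 and 0.681). For control and NR ST-HSCs (0.669, -0.061 and 0.549) and the control groups (0.425, -0.232 and 0.430) they did not in every pair. The same held for NR LT-HSCs and control ST-HSCs (0.667, -0.273 and 0.566). Some unlike-numbered pairs lay higher than same-numbered ones. Control LT-HSC sample 2 gave 0.328 with NR LT-HSC sample 1, and NR LT-HSC sample 2 gave 0.366 with NR ST-HSC sample 1. These values do not settle whether equal numbers mark a shared source. Alternatives were other scalings, DESeq2 1.42.0, other filters, fits of the groups compared, the block, each library left out, and 2 ways of handling unassigned reads.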

Additional observations from a re-analysis of the deposited data

How the results depend on the processing

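Of 50 gene-level results on the 10 genes, the 9 that passed kept their direction in all alternatives run, 124 with the call and 11 without it. The 41 that did not pass gave 56 turns of sign and 10 calls. Lost and gained calls stand beside their results, and their cause was not tested. The stricter filter gave no value for Epas1, Egln1 and Ankrd37, and the fit of only the groups compared gave none for differences of effects. DESeq2 gave no adjusted p for the Epas1 difference of effects, nor for Epas1 and Ankrd37 with NR in LT-HSCs, which were left out there. Epas1 and Ankrd37 had few counts, which limits their precision.

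Over all genes, differences of the NR effects numbered 2, and 6 with upper-quartile factors, 136 in DESeq2, 43 with no filter, 36 with the stricter filter and 10 with the unassigned share as a covariate. Between the cell types, control culture gave 994, 1630 in DESeq2 and 1525 in the fit of those groups alone. With NR there were 1204, 2063 in DESeq2, 1845 with the stricter filter and 657 in the fit of those groups alone. Of the 10 genes, 1 in place of 2 passed between the cell types with NR without the libraries of most unassigned reads, and 2 in place of 1 in control culture with the covariate.

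Under the replicate block (sample number as a term), the differences of effects over all genes numbered 15, Hif1a passed in LT-HSCs and Ndrg1 passed in ST-HSCs (-0.20, edgeR adjusted p = 0.0401); the block changed no other call on the 10 genes.

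With each library left out in turn, the counts over all genes were 1111 to 1407 in LT-HSCs, 2335 to 3116 in ST-HSCs, 0 to 17 for the difference of effects, 646 to 800 between cell types in control culture and 832 to 1187 with NR. Those of the 10 genes were 2 in LT-HSCs, 2 to 4 in ST-HSCs, 0, 1 and 1 to 3.

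All turns of sign were in values that did not pass. In ST-HSCs with NR, under relative log expression, upper-quartile, DESeq2, no filter and the stricter filter, Arnt changed by 0.047, 0.034, 0.047, 0.045 and 0.049, Egln2 by 0.022, 0.0085, 0.021, 0.020 and 0.023, and Ankrd37, in the first 4, by 0.035, 0.033, 0.031 and 0.029. In the fit of the groups compared Arnt changed by -0.00201 in LT-HSCs and Hif1a differed by -0.0093 between cell types with NR. Without the 2 libraries of most unassigned reads the NR changes were 0.0045 (Egln2) and 0.19 (Ankrd37) in LT-HSCs and -0.074 (Epas1), 0.089 (Arnt) and 0.073 (Egln2) in ST-HSCs. The differences of effects were then -0.53 (Epas1), 0.077 (Arnt) and -0.37 (Ankrd37), and Ankrd37 differed between cell types with NR by 0.44. With the covariate Egln2 gave -0.00777 for the difference of effects and Ankrd37 -0.020 between cell types in control culture.

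Leaving out 1 library, the NR change in LT-HSCs ran from -0.031 to 0.10 (Arnt) and -0.37 to 0.18 (Ankrd37). In ST-HSCs it ran from -0.072 to 1.72 (Epas1), -0.099 to 0.089 (Arnt), -0.12 to 0.073 (Egln2) and -0.18 to 0.11 (Ankrd37). The difference of effects ran from -0.61 to 1.19 (Epas1), -0.11 to 0.061 (Arnt), -0.047 to 0.13 (Egln2) and -0.22 to 0.38 (Ankrd37). Between cell types Ankrd37 ran from -0.092 to 0.20 in control culture. With NR the ranges were -0.064 to 0.083 (Hif1a), -0.00024 to 0.15 (Egln2), -0.12 to 0.013 (Vhl) and -0.30 to 0.26 (Ankrd37).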
